A study of Sus scrofa with 16 samples.

Results

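The livers of 16 pigs were examined for the genes of gluconeogenesis and glycogen turnover. The genes were chosen by symbol: PCK1, PCK2, G6PC, FBP1, PC, PPARGC1A, PYGL, GYS2, SLC37A4 and SLC2A2. Of these 10 genes, 9 had at least 1 probe named on the array, with 24 probes in all among 43603 probes of the whole array. SLC37A4, the transporter that carries glucose 6-phosphate into the endoplasmic reticulum, had no probe named and was not analysed here. PPARGC1A stood on the array under an older symbol and was matched through its RefSeq accession.

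The pigs came from 2 lines selected for residual feed intake (RFI), the part of feed intake that body weight and growth do not account for. Total RNA was taken from the liver of 8 low-RFI pigs (labelled RFIneg) and 8 high-RFI pigs (labelled RFIpl), all at 20 kg body weight and all fed ad libitum, and each pig had 1 Cy3-labelled Agilent array. Low-RFI pigs are those that eat less than predicted. The labels give neither the hours since the last meal nor the age or relationship of the pigs. The p-values of the line differences weigh each difference against the spread between pigs within a line. They treat the pigs as independent, which the labels cannot show.

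Gluconeogenesis makes glucose in the liver from lactate, amino acids and glycerol. Pyruvate carboxylase and the phosphoenolpyruvate carboxykinases open the path, fructose 1,6-bisphosphatase works in its middle, and glucose 6-phosphatase ends it, together with the release of glucose from glycogen. In mammals generally, insulin represses PCK1 and G6PC after a meal, while glucagon and the coactivator PPARGC1A raise them in fasting. A level in the text is a log2 signal minus the 75th percentile of log2 signals on that pig's array, and each change is the low-RFI mean minus the high-RFI mean of these log2 levels. A level on one probe is not comparable with a level on another probe, because probes bind with different strength.

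Each probe is a designed strand of 60 bases. Those printed here, as deposited with the scanner output, belong to genes on which the results turn. By the probe with the highest mean level, PCK1 and G6PC varied most between pigs, SLC2A2 had the smallest line p-value, and PYGL varied least of the 9. The PCK1, G6PC and PYGL probes printed are other probes of these genes, and the PYGL one had an SD between pigs of 0.293.
PCK1 A_72_P441080: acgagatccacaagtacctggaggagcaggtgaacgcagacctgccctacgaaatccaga
G6PC A_72_P440076: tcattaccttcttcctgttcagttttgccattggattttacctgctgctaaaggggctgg
SLC2A2 A_72_P077641: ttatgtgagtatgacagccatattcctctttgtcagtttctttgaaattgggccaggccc
PYGL A_72_P003386: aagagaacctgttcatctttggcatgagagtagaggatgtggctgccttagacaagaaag
Of the 5 PCK1 probes, 3 overlap in sequence (A_72_P637186, A_72_P098696 and A_72_P593929). They have the run of 19 bases below in common, in capitals, so they read the same stretch of the transcript.
PCK1 shared run: TACTGTGGTTCCCTGCCTT
In the same way, 3 of the 4 PYGL probes have 46 bases in common. In the Sscrofa11.1 annotation of RefSeq, PCK1 lies on chromosome 17, G6PC on chromosome 12, SLC2A2 on chromosome 13 and PYGL on chromosome 1. The positions of the probes themselves are not given in the sources used here.

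No gene of gluconeogenesis or glycogen turnover differed between the lines past the threshold. Of the 24 probes, 0 had an adjusted p under 0.05 in limma's moderated test over 30097 tested probes, and 0 had an unadjusted p under 0.05. Over all tested probes, 3 were called (0.00997%), and 1642 had an unadjusted p under 0.05 (5.46%). The pig levels of the lines overlapped for all 9 genes, and over all tested probes the lines did not overlap for 13 (0.0432%). By the probe with the highest mean level, 5 genes were higher and 4 lower in low-RFI livers, with a median change of +0.03, against a median of +0.02 and 54.6% higher over the 4162 genes tested. What set these genes apart from each other was how much they varied from pig to pig. The SD between pigs within a line ran from 0.205 for PYGL to 1.46 for PCK1, with a median of 0.326 over all tested probes. In whole liver, fewer cells of a type and less RNA per cell cannot be told apart.

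As a check of the labelled tissue, the 7 hepatocyte markers tested averaged between 4.26 and 9.55 in low-RFI livers and between 4.06 and 9.47 in high-RFI livers. All 7 were higher in low-RFI livers (median +0.08, APOB +0.20), from TF at +0.01 upward, and 0 were called. All 24 probes of the members were well above background on all 16 arrays, and 0 were saturated on any. The scanner software marked 0 low-RFI and 5 high-RFI arrays for evaluation, and the median CV of replicated probes was 6.97 ± 0.50% for low-RFI livers and 8.04 ± 0.66% for high-RFI livers (SD, n = 8 each). Array noise therefore moved with line, and its part in the line differences was not tested beyond the fits given beside them. A fit without the marked arrays leaves out 5 of the 8 high-RFI pigs. In it, array quality and the loss of these pigs cannot be told apart. Between 29135 and 30925 probes were well above background on the low-RFI arrays, and between 28576 and 34977 on the high-RFI arrays. The arrays lay on 4 slides with 2 low-RFI and 2 high-RFI pigs each. The sample numbers fell into a first set (1 to 8) and a second set (55 to 62), each with 4 pigs of either line.

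**Figure D1:**
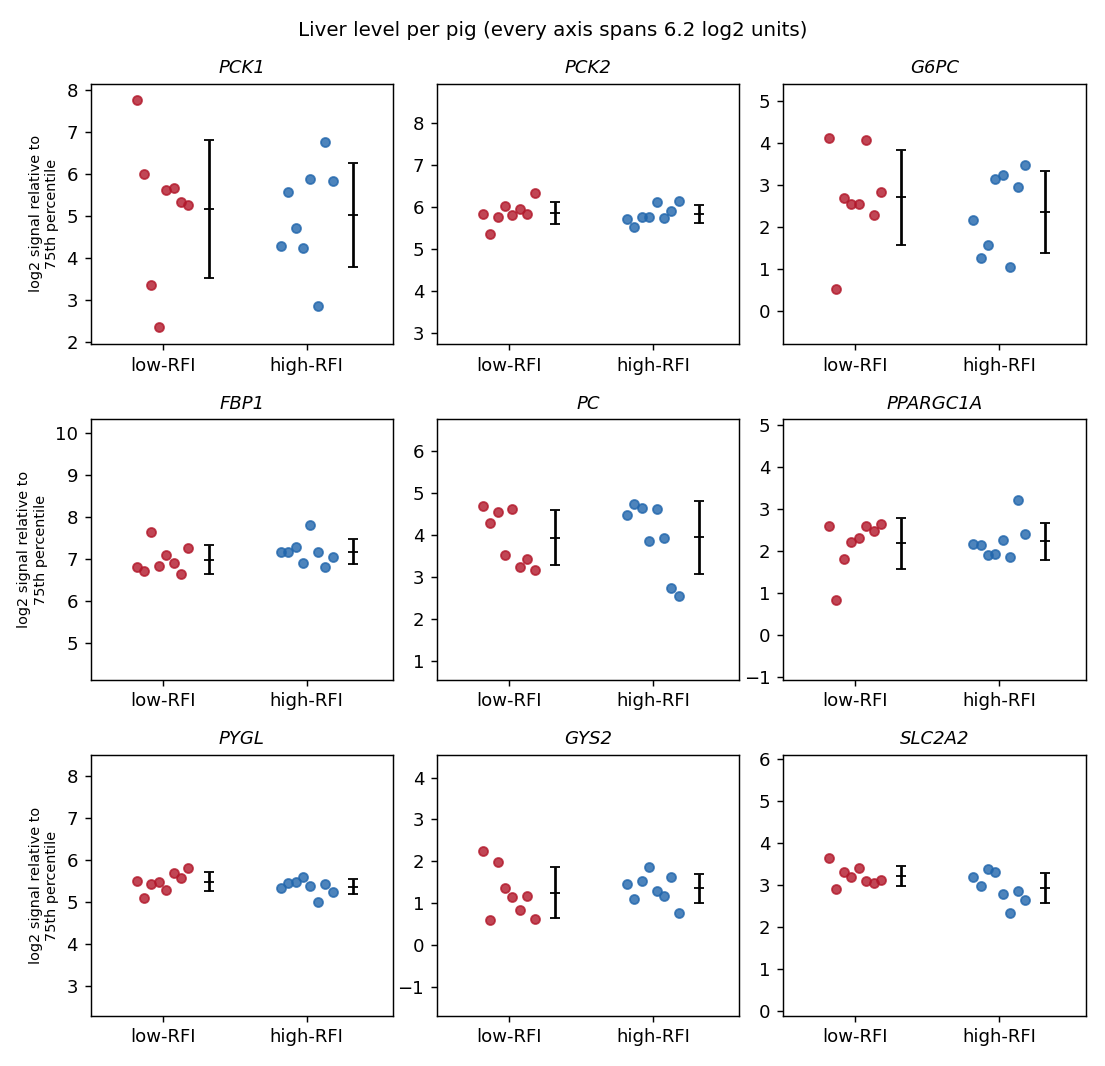
Liver level of the 9 measured genes, 1 point per pig, as log2 signal relative to the array's 75th percentile. Low-RFI pigs (red) stand left of high-RFI pigs (blue), bars give the mean and SD (n = 8 each), and all panels span the same number of log2 units, so PCK1 and G6PC can be seen to scatter widely while PYGL and PCK2 stay within a narrow band in both lines.

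PC encodes pyruvate carboxylase, the mitochondrial enzyme that turns pyruvate into oxaloacetate. Its level was 3.18 in the lowest, 3.92 in the median and 4.69 in the highest low-RFI pig, against 2.57, 4.20 and 4.75 in high-RFI pigs. The ranges lay over each other almost completely. The mean was 3.94 ± 0.65 in low-RFI livers and 3.95 ± 0.87 in high-RFI livers (SD, n = 8 each), a change of -0.01 (SE 0.351, limma adjusted p = 0.999, 95% interval -0.75 to +0.73). A further probe described as PC, but not named by the rule, gave a change of -0.10 (SE 0.307) and followed the shown probe with r = 0.98 over the 16 pigs. The second probe that the rule names followed it with r = 0.77 and gave -0.12. The PC direction turned with the array noise as a covariate (+0.55) and without the 5 marked arrays (+0.20).

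PCK1 encodes the cytosolic phosphoenolpyruvate carboxykinase, which turns oxaloacetate into phosphoenolpyruvate and is regulated chiefly through its transcription. Its level was 2.35 in the lowest, 5.48 in the median and 7.76 in the highest low-RFI pig, against 2.85, 5.15 and 6.76 in high-RFI pigs. Both the highest and the lowest of the 16 livers were low-RFI, and they stood 42.3-fold apart. Among high-RFI livers the extremes stood 15.1-fold apart. The mean was 5.17 ± 1.65 in low-RFI livers and 5.02 ± 1.24 in high-RFI livers (SD, n = 8 each), a change of +0.15 (SE 0.659, adjusted p = 0.998). The 95% interval of that change ran from -1.24 to +1.54.

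The 5 PCK1 probes agreed closely over pigs. Their levels correlated pairwise with r between 0.992 and 0.999 (n = 16 pigs, which share the array and the RNA), and their SD between pigs was between 1.44 and 1.54. The probes without the shared run gave changes of +0.23 and +0.24, and the 3 that carry it gave +0.12 to +0.15. The SD of the shown probe was larger than that of 99.5% of tested probes. Per slide, the low-RFI minus high-RFI difference of PCK1 was +2.1 and +0.96 on 2 slides and -0.99 and -1.47 on the other two. The change was -0.46 without the 5 marked arrays, and lay between -0.22 and +0.55 when single pigs were left out.

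PCK2 encodes the mitochondrial form of the same enzyme. Its level was 5.35 in the lowest, 5.83 in the median and 6.32 in the highest low-RFI pig, against 5.51, 5.76 and 6.14 in high-RFI pigs. Unlike PCK1, it stayed within a 1.96-fold range over all 16 livers. PCK2 averaged 5.86 ± 0.27 in low-RFI and 5.83 ± 0.21 in high-RFI livers (SD, n = 8 each), a change of +0.03 (SE 0.128, adjusted p = 0.998, 95% interval -0.24 to +0.29). The 3 PCK2 probes gave changes between -0.07 and +0.09, and correlated with r between 0.62 and 0.82. Its sign turned under several of the alternatives in the closing part.

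FBP1 encodes fructose 1,6-bisphosphatase, which opposes phosphofructokinase. Its level was 6.64 in the lowest, 6.86 in the median and 7.64 in the highest low-RFI pig, against 6.80, 7.16 and 7.79 in high-RFI pigs. The mean was 6.98 ± 0.34 in low-RFI livers and 7.16 ± 0.30 in high-RFI livers (SD, n = 8 each), a change of -0.18 (SE 0.157, adjusted p = 0.979, 95% interval -0.52 to +0.15). All 3 probes gave negative values, between -0.19 and -0.12, and followed one another with r between 0.95 and 0.97. FBP1 was one of 2 genes whose sign held in all 29 alternative fits, where its change lay between -0.28 and -0.09 and was called in 0.

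G6PC encodes the catalytic subunit of glucose 6-phosphatase, the last enzyme before glucose leaves the liver cell. Its level was 0.52 in the lowest, 2.62 in the median and 4.11 in the highest low-RFI pig, against 1.05, 2.57 and 3.48 in high-RFI pigs. On this probe the extremes both lay in the low-RFI line, 12.0-fold apart. On the other G6PC probe the lowest liver was high-RFI pig 6 (-0.49), and the pigs spanned 6.61-fold in the low-RFI and 7.89-fold in the high-RFI line. The mean was 2.70 ± 1.13 in low-RFI livers and 2.36 ± 0.97 in high-RFI livers (SD, n = 8 each), a change of +0.34 (SE 0.476, adjusted p = 0.985, 95% interval -0.66 to +1.35). The 2 G6PC probes correlated with r = 0.84 and gave +0.25 and +0.34. The SD between pigs of the shown probe, 1.05, was larger than that of 98.2% of tested probes. The change turned to -0.39 with the array noise as a covariate and to -0.41 without the marked arrays. With single pigs left out it lay between +0.14 (without low-RFI pig 1) and +0.65 (without low-RFI pig 2).

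SLC2A2 encodes GLUT2, the transporter through which glucose crosses the hepatocyte membrane. Its level was 2.91 in the lowest, 3.14 in the median and 3.65 in the highest low-RFI pig, against 2.32, 2.91 and 3.37 in high-RFI pigs. Just 1 low-RFI level was under the mean of the high-RFI line. The mean was 3.21 ± 0.23 in low-RFI livers and 2.93 ± 0.36 in high-RFI livers (SD, n = 8 each), a change of +0.28 or 1.21-fold (SE 0.149, unadjusted p = 0.077, adjusted p = 0.956, 95% interval -0.03 to +0.60). This was the smallest p among the 9 genes, and it did not pass the threshold. The difference was positive on all 4 slides, at +0.22, +0.65, +0.12 and +0.13, and in all 29 alternative fits, where it lay between +0.19 and +0.34. SLC2A2 had 1 probe on the array, so no other probe could be set beside it.

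PYGL encodes the liver glycogen phosphorylase, which frees glucose 1-phosphate from glycogen. Its level was 5.09 in the lowest, 5.49 in the median and 5.80 in the highest low-RFI pig, against 4.99, 5.41 and 5.60 in high-RFI pigs. The 16 livers lay within a 1.75-fold range. The mean was 5.48 ± 0.22 in low-RFI livers and 5.37 ± 0.18 in high-RFI livers (SD, n = 8 each), a change of +0.12 (SE 0.112, adjusted p = 0.979, 95% interval -0.12 to +0.35). All 4 probes gave positive values, from +0.12 to +0.14 on the 3 that overlap and +0.03 on A_72_P003386, which does not overlap them. The probes correlated with r between 0.56 and 0.98. With the array noise as a covariate the change was -0.01, and without the marked arrays +0.01.

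GYS2 encodes the liver glycogen synthase, the enzyme that opposes PYGL. Its level was 0.60 in the lowest, 1.17 in the median and 2.26 in the highest low-RFI pig, against 0.78, 1.38 and 1.87 in high-RFI pigs. The low-RFI pigs spread over both ends of the high-RFI range. The mean was 1.25 ± 0.61 in low-RFI livers and 1.36 ± 0.34 in high-RFI livers (SD, n = 8 each), a change of -0.11 (SE 0.231, adjusted p = 0.998, 95% interval -0.59 to +0.38). The 3 GYS2 probes did not share a sign, with changes between -0.11 and +0.13. The GYS2 change was -0.34 without the marked arrays and -0.20 with the array noise as a covariate, and lay between -0.25 (without low-RFI pig 1) and -0.01 (without low-RFI pig 2).

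PPARGC1A encodes PGC-1α, the coactivator that raises PCK1 and G6PC transcription in fasted rodent liver. Its level was 0.84 in the lowest, 2.38 in the median and 2.64 in the highest low-RFI pig, against 1.86, 2.14 and 3.22 in high-RFI pigs. Low-RFI pig 2 stood below all others and high-RFI pig 7 above all others. The mean was 2.17 ± 0.61 in low-RFI livers and 2.23 ± 0.44 in high-RFI livers (SD, n = 8 each), a change of -0.06 (SE 0.247, adjusted p = 0.998, 95% interval -0.58 to +0.46). Without low-RFI pig 2 it was +0.14, with the array noise as a covariate -0.50, and without the marked arrays -0.29. A probe described as goat PPARGC1A, outside the rule, gave +0.11 and followed the shown probe with r = 0.70.

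**Figure D2:**
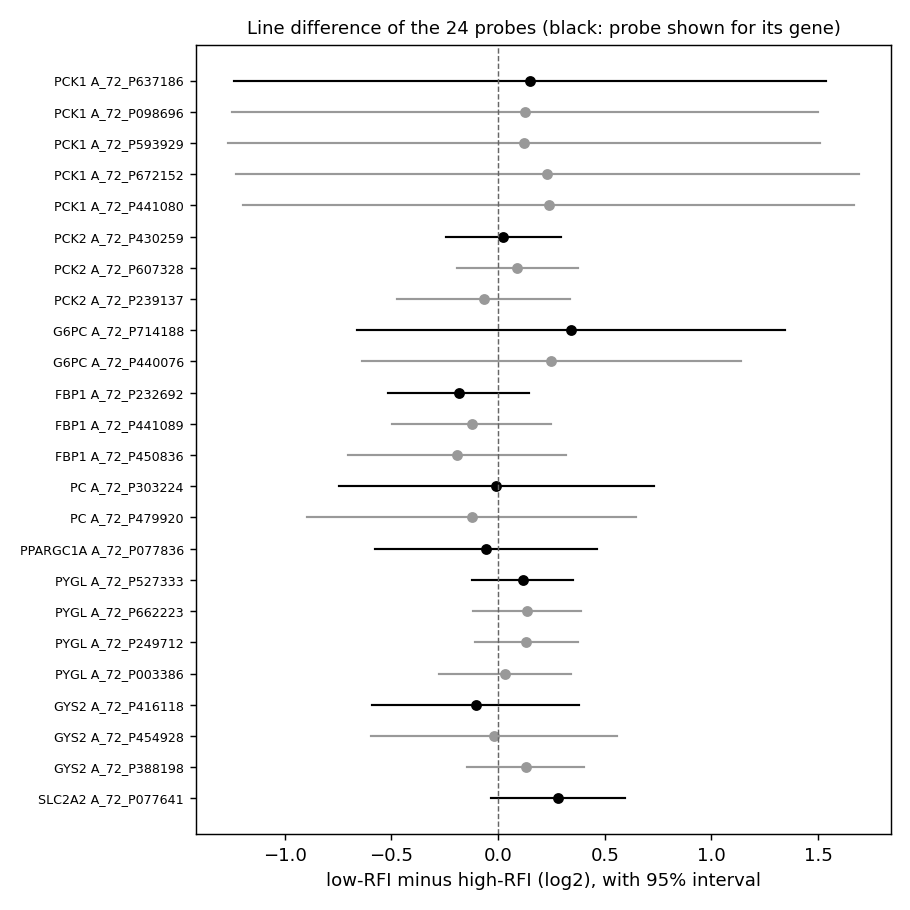
Change between the lines (low-RFI minus high-RFI, log2) of each of the 24 probes, with the 95% interval of the limma fit as a line. The probe shown for its gene is black and the others are grey. Every interval holds 0, and the PCK1 and G6PC intervals are the widest.

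Spread between pigs was then set against that of all 30097 tested probes. PCK1 (99.5th percentile), G6PC (98.2) and PC (94.9) stood near the top, followed by PPARGC1A (83.2) and GYS2 (79.5). FBP1 (48.1), SLC2A2 (43.2), PCK2 (26.8) and PYGL (15.4) lay below the median by their shown probes. Some other probes lay on the opposite side of the median from the shown one, both of FBP1 at 59.3 and 82.2, 1 of PCK2 at 66.8 and 1 of GYS2 at 28.3. PCK1 and G6PC thus varied more between pigs than almost all other probes, and the cause of this spread was not tested. The other probes of the widest-varying genes lay nearby, with SDs of 1.44 to 1.54 over the 5 PCK1 probes and of 0.93 and 1.05 for the 2 G6PC probes.

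The lines were compared in spread by fitting the absolute deviation of each pig from its line median. Over all tested probes, 7 were called (0.0233%), and among the 9 shown probes 0 were called and 0 had an unadjusted p under 0.05, against 3.97% of all tested probes. By the shown probes, the SD was larger in low-RFI than in high-RFI livers for 7 of the 9 genes, PCK1 and G6PC among them. The share over all tested probes is not given here, so this count does not set the genes apart. By the fitted deviations, 3 of the 9 genes varied less in low-RFI livers, G6PC among them. The deviations of PCK1 differed by +0.10 (SE 0.442, adjusted p = 0.995) and those of G6PC by -0.12 (SE 0.297, adjusted p = 0.995), low-RFI minus high-RFI. For the G6PC probe not shown, the SDs lay close together (low-RFI 0.94, high-RFI 0.92), and the deviations differed by +0.11. GYS2 had the smallest unadjusted p of the shown probes at 0.227, with a difference of +0.18.

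**Figure D3:**
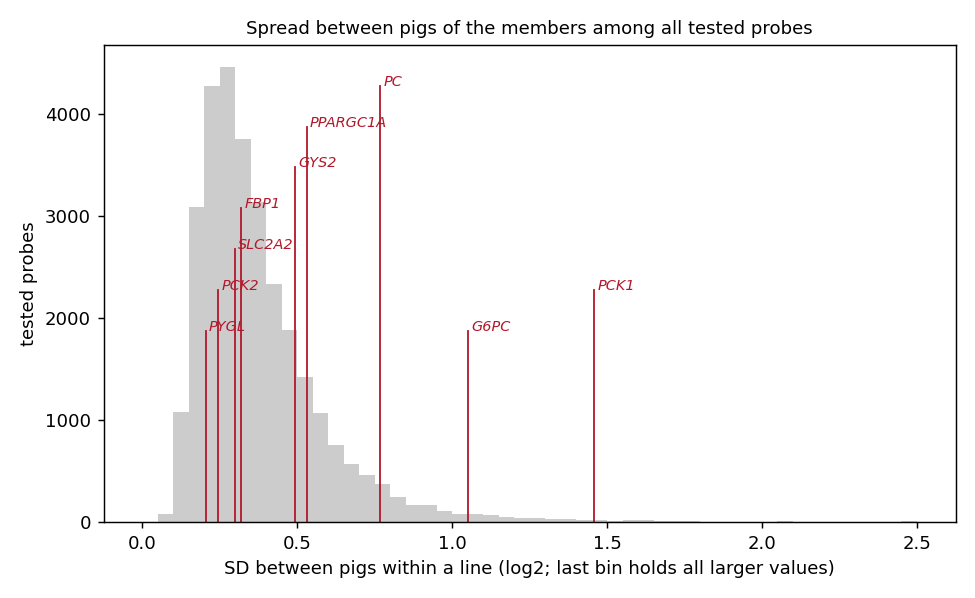
Histogram of the SD between pigs within a line (log2) of all 30097 tested probes, with a red line at the SD of each shown gene. PCK1 and G6PC lie far in the right tail, and PYGL and PCK2 lie left of the median of 0.326.

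The sets of sample numbers gave a second comparison, second set minus first set with line as a covariate. Over all tested probes, 584 were called (1.94%) and 7631 had an unadjusted p under 0.05 (25.4%). Of the 9 shown genes, 0 were called and 4 had an unadjusted p under 0.05. PC averaged 3.54 ± 0.78 in the second set and 4.35 ± 0.44 in the first set (SD, n = 8 each), a difference of -0.81 with limma's adjusted p = 0.120. SLC2A2 averaged 2.90 ± 0.33 in the second set and 3.23 ± 0.23 in the first, a difference of -0.33 (adjusted p = 0.132). PPARGC1A differed by +0.53 (adjusted p = 0.150) and PCK2 by +0.27 (adjusted p = 0.154). The PCK2 probes not shown gave +0.11 and +0.49 (limma adjusted p = 0.639 and 0.081). GYS2 differed by -0.44 on its shown probe (limma adjusted p = 0.201), and by -0.68 and -0.13 on the others (0.091 and 0.535). What the numbers stand for is not given in the labels. PCK1 differed by +0.61 (adjusted p = 0.581) between the sets, which is small beside its SD of 1.13 within the second set and 1.67 within the first.

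Single pigs stood low or high in several genes at once, by the shown probes. How often each pig was the lowest or highest over all tested probes is not given here, so these counts do not set the genes apart. Low-RFI pig 2 was the lowest of its line in 6 of the 9 genes (PCK2, G6PC, PPARGC1A, PYGL, GYS2 and SLC2A2), yet its PCK1 level of 6.01 was among the higher ones. On the GYS2 probe A_72_P454928, low-RFI pig 8 was the lowest (-0.91) and low-RFI pig 3 the highest (+1.13). High-RFI pig 6 was the lowest of its line in 5 of the 9 genes (PCK1, G6PC, PPARGC1A, PYGL and SLC2A2) by the shown probes. Its array was 1 of the 5 marked for evaluation, with the lowest 75th percentile of the 16 (an intensity of 320.0) and the most spots well above background (35126), and their part in these levels was not tested. On the PYGL probe that does not overlap the others, A_72_P003386, the same pig was the highest of its line at 3.67. Low-RFI pig 1 held the highest level of its line in PCK1, G6PC, PC, GYS2 and SLC2A2.

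Relations between genes were computed over the 16 pigs for 5 pairs. By their shown probes, PPARGC1A and G6PC were correlated, with Pearson's r = 0.672 (permutation p = 0.0040, Benjamini-Hochberg adjusted over the 5 pairs p = 0.0201) and Spearman's rho = 0.650 (permutation p = 0.0081, adjusted p = 0.0407). The other G6PC probe, which followed the shown one with r = 0.84, was not tested against PPARGC1A, so the relation is known for 1 probe only. Within lines, r was 0.832 over the 8 low-RFI pigs (exact permutation p = 0.0156) and 0.478 over the 8 high-RFI pigs (exact permutation p = 0.228). Within the sets of sample numbers, it was 0.507 in the second and 0.724 in the first. Leaving out the 2 pigs farthest from the median of PPARGC1A gave r = 0.606 (permutation p = 0.0230). Leaving out low-RFI pig 2 alone was chosen after the values were seen. It gave r = 0.503 (permutation p = 0.0561) and rho = 0.575 (permutation p = 0.0274), both unadjusted. The call by r thus rests in part on this pig, while the unadjusted p of rho stayed under 0.05. With line, set and slide means removed, r was 0.513 (permutation p = 0.0428) and rho was 0.459 (permutation p = 0.0752), neither adjusted over the pairs. These permutations treated the 16 remaining values as independent, which they are not once fitted means are removed. Both p are therefore too small, and the p of r under 0.05 is no test of the relation. Between the sets of sample numbers, PPARGC1A differed by +0.53 and G6PC by +0.56 (limma adjusted p = 0.150 and 0.465), second minus first. The G6PC probe not shown had the opposite sign, at -0.23 (limma adjusted p = 0.763). The difference between the lines in this relation was not tested.

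PPARGC1A and PCK1 gave r = 0.358 (permutation p = 0.173, adjusted p = 0.295) over all pigs, and rho = 0.479 (permutation p = 0.0613, adjusted p = 0.153). Leaving out the same pig, again a choice made after the values were seen, moved this value in the other direction. Without low-RFI pig 2, which had low PPARGC1A and high PCK1, r was 0.692 (permutation p = 0.0041). Without the 2 pigs farthest from the median of PPARGC1A it was 0.674 (permutation p = 0.0083). Neither p was adjusted over the pairs. Low-RFI pig 2 lay off the trend of the other pigs, so the p without it is no test of the relation. Within lines r was 0.124 among the low-RFI pigs (exact permutation p = 0.743) and 0.798 among the high-RFI pigs (exact permutation p = 0.0153). Within the sets r was 0.789 in the second and 0.032 in the first. The ranks gave less in the second set, with rho = 0.286 (exact permutation p = 0.501), and rho was 0.024 in the first.

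PCK1 and G6PC, which share their hormonal control, gave r = 0.355 (permutation p = 0.177, adjusted p = 0.295) and rho = 0.415 (permutation p = 0.112, adjusted p = 0.186). Without low-RFI pig 2, again chosen after the values were seen, that r was 0.530 (permutation p = 0.0411, unadjusted). Without the 2 pigs farthest from the median it was 0.271. The opposing glycogen enzymes PYGL and GYS2 gave r = 0.127 (permutation p = 0.643, adjusted p = 0.804) and rho = 0.185 (permutation p = 0.492). The PEPCK forms PCK1 and PCK2 gave r = 0.022 (permutation p = 0.935, adjusted p = 0.935) and rho = 0.197 (permutation p = 0.463). For PCK1 with G6PC, r within the sets was 0.770 in the second and 0.067 in the first. For PYGL with GYS2 it was -0.38 in the second and 0.735 in the first, and for PCK1 with PCK2 it was 0.345 in the second and -0.46 in the first.

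IGFBP1, a binding protein of insulin-like growth factors that insulin represses in liver, was set beside 3 members after its values had been seen. PCK1 and IGFBP1 gave r = 0.673 (permutation p = 0.0041, adjusted over the 3 pairs p = 0.0122) and rho = 0.768 (permutation p = 0.0009, adjusted p = 0.0027). Within lines r was 0.737 among the low-RFI pigs (exact permutation p = 0.0349) and 0.646 among the high-RFI pigs (exact permutation p = 0.0829). Within the sets it was 0.441 in the second and 0.966 in the first. Without the 2 pigs farthest from the median of PCK1 it was 0.719. G6PC with IGFBP1 gave r = 0.344 (permutation p = 0.191) and PPARGC1A with IGFBP1 gave r = 0.474 (permutation p = 0.0621), with adjusted p of 0.191 and 0.0932 and rho of 0.332 and 0.494. Within the sets, G6PC with IGFBP1 gave 0.422 in the second and 0.062 in the first, and PPARGC1A with IGFBP1 gave 0.549 in the second and 0.016 in the first. Since IGFBP1 was chosen on these same pigs, its values are given as a description.

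**Figure D4:**
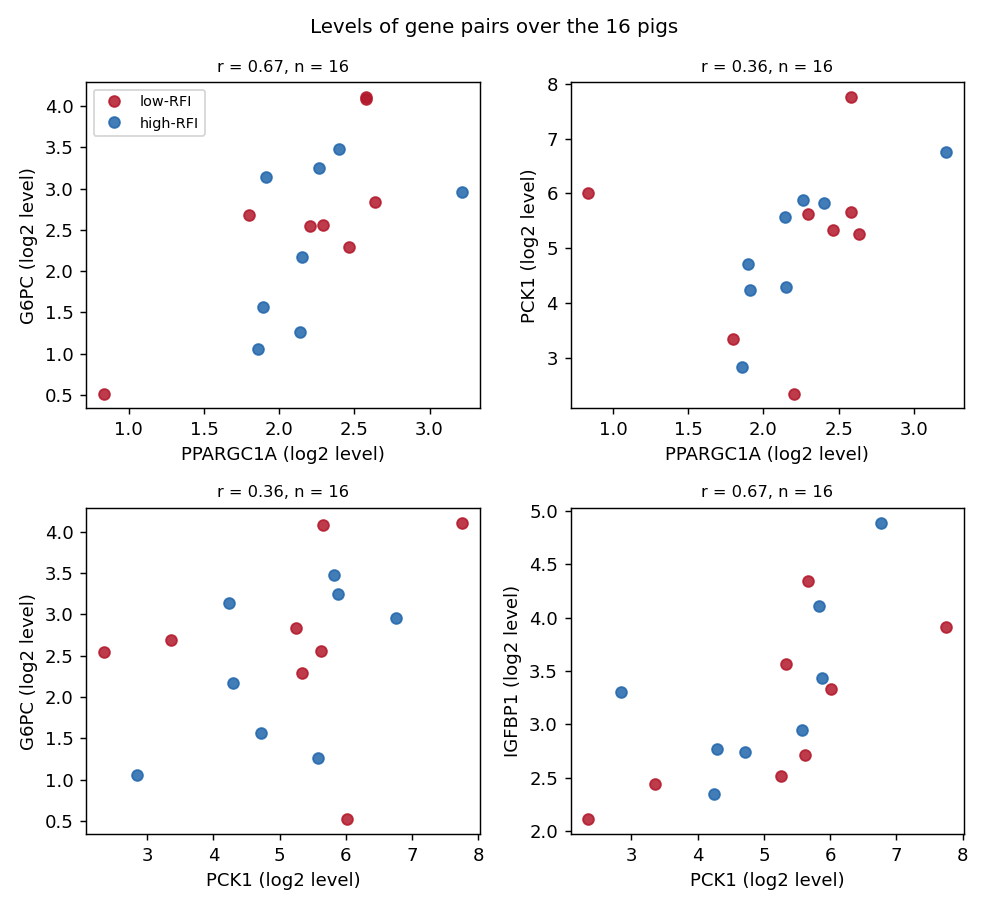
Log2 levels of 4 gene pairs, 1 point per pig, low-RFI in red and high-RFI in blue, with Pearson's r over the 16 pigs above each panel. The lone point at the left of the upper panels is low-RFI pig 2, with a PPARGC1A level of 0.84.

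The genes whose levels ran most like those of the 3 widest-varying members were found by Pearson's r over the 16 pigs after line means were removed, among 4152 genes. For PCK1 they were OOEP (0.889), REG3G (0.864), NR6A1 (0.848), EFNA1 (0.834) and BCL10 (0.833). For G6PC they were TSPYL1 (0.827), SORBS2 (0.776), ACOX2 (0.769), WFDC3 (0.766) and NDRG2 (0.766). For PC they were LCAT (0.945), TYROBP (0.937), TGFB1 (0.914), GNG12 (0.911) and DEFB1 (0.907). ACOX2 is a peroxisomal enzyme of bile acid synthesis, LCAT esterifies cholesterol in plasma lipoproteins, and TYROBP is an adaptor of myeloid cells. These are the top values of many, all points share arrays and RNA, and the values are a description.

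Other genes of glucose output were counted from lists, and 0 of their genes were called between the lines. Of 10 further gluconeogenic enzymes tested, 6 were higher and 4 lower in low-RFI livers (median +0.04). Their extremes were LDHB, a lactate dehydrogenase subunit, at -0.46 (adjusted p = 0.950) and MDH2, the mitochondrial malate dehydrogenase, at +0.33 (adjusted p = 0.969). Of 8 genes that supply lactate, alanine or glycerol, 5 were higher and 3 lower (median +0.15). AQP9, the glycerol channel of hepatocytes, averaged 1.96 ± 0.32 in low-RFI and 1.66 ± 0.17 in high-RFI livers (SD, n = 8 each), a change of +0.30 with unadjusted p = 0.035 and adjusted p = 0.894. PDK4, which restrains pyruvate oxidation, stood at the other end with -0.24.

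Of 7 further glycogen genes, 5 were higher and 2 lower (median +0.08). PGM1, which interconverts glucose 1-phosphate and glucose 6-phosphate, averaged 4.49 ± 1.16 in low-RFI and 5.39 ± 0.53 in high-RFI livers (SD, n = 8 each), a change of -0.90 with unadjusted p = 0.042 and adjusted p = 0.907. PPP1CB, a catalytic subunit of protein phosphatase 1, had a change of +0.26 (unadjusted p = 0.044, adjusted p = 0.912). Of 18 regulators of glucose output, 12 were higher and 6 lower (median +0.04), from CEBPA at -0.32 to KLF15 at +0.39, both transcription factors that act on gluconeogenic genes. Over the 4162 genes tested, 4.93% had an unadjusted p under 0.05.

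Genes known to rise in liver on fasting or on feeding were counted in the same way. Of 12 fasting genes, 3 were higher and 9 lower in low-RFI livers (median -0.16), from the hormone gene FGF21 at -0.74 to IGFBP2 at +0.28. Of 9 feeding genes, 0 were higher and 9 lower (median -0.19), from PNPLA3 at -1.15 to ACACA at -0.07, and 0 had an unadjusted p under 0.05. Over all 4162 genes, 54.6% were higher. The feeding genes were measured in the same pigs, so their signs are not independent and their count was not tested. PNPLA3, a lipid droplet protein, averaged 3.71 ± 2.36 in low-RFI and 4.85 ± 0.59 in high-RFI livers (SD, n = 8 each, adjusted p = 0.977). SCD, the stearoyl-CoA desaturase, averaged 6.34 ± 1.38 in low-RFI livers and 6.81 ± 0.66 in high-RFI livers. The widest spreads between pigs among the feeding genes were those of PNPLA3 (SD 1.72) and SCD (1.08). Among the fasting genes, FGF21 had an SD of 1.47. Time since the last meal was not recorded in the labels, and its part in any spread was not tested.

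**Figure D5:**
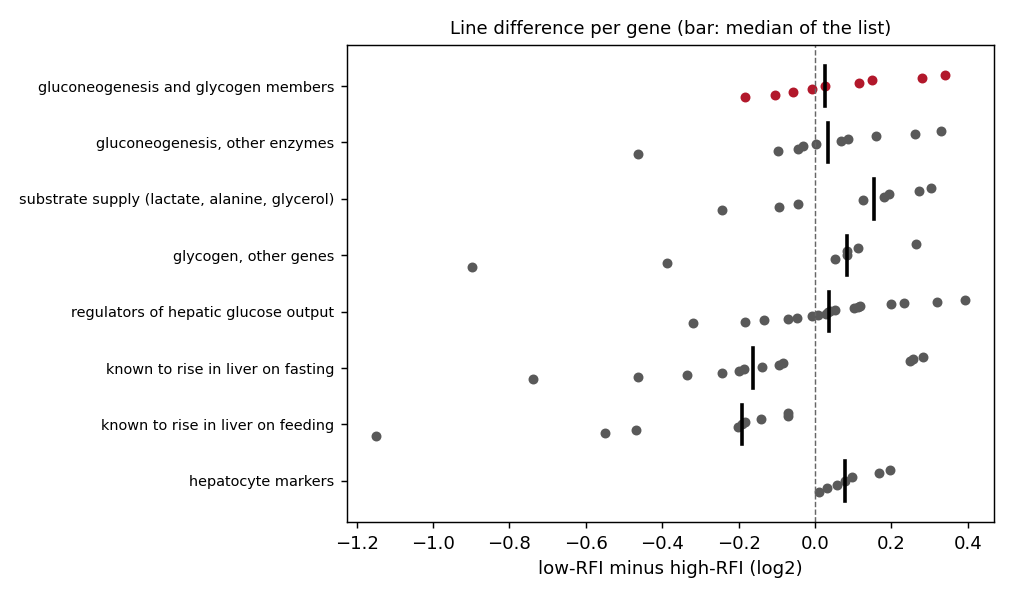
Change between the lines (low-RFI minus high-RFI, log2) of each tested gene, 1 point per gene, for the 9 members and 7 lists, with a black bar at each list's median. The members lie between -0.18 and +0.34, and all 9 feeding genes lie left of 0.

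Markers of liver zones and of other cells were set beside these results. The mean level of the 4 periportal markers was between 2.16 and 3.77 in low-RFI and between 2.23 and 3.21 in high-RFI pigs. That of the 7 pericentral markers was between 1.95 and 2.78 in low-RFI and between 2.12 and 2.68 in high-RFI pigs. Gluconeogenesis is concentrated in periportal hepatocytes, and among their markers 2 were higher and 2 lower, from SDS at -0.10 to HAL at +0.16. Among pericentral markers, 2 were higher and 5 lower. GLUL, the glutamine synthetase of the cells around the central vein, averaged 5.67 ± 0.31 in low-RFI and 6.16 ± 0.46 in high-RFI livers (SD, n = 8 each), a change of -0.49 with unadjusted p = 0.017 and adjusted p = 0.753. TBX3 stood at the other end with +0.16.

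Of the markers of Kupffer cells (3 tested), T and NK cells (5), stellate cells (3), endothelium (4), bile duct (3), erythroid cells (1) and tissue taken along (6), 0 were called between the lines. The 3 Kupffer markers averaged between 2.76 and 4.69 in low-RFI and between 3.28 and 4.47 in high-RFI pigs.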

How the data were processed

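Per the file headers, Agilent Feature Extraction 10.7.3.1 read the scans, and its processed signal is a background-subtracted, detrended intensity on a linear scale. Mean and local background signals, also intensities per the file headers, were used for the normexp alternative. The authors' deposited series table holds log2 processed signal centred on each array's median (27938 spots, all column medians 0). The submitters' processing notes name R 2.10.0.

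Outlier-marked spots were set missing, each array's 75th percentile of log2 signal was subtracted, and spots of a probe were averaged. Probes well above background on at least 8 of 16 arrays were tested (30097 of 43603). Where a gene had several tested probes, the one of highest mean level is shown. Names came from the files and RefSeq accessions (5461 of 5779 matched), which gave 11130 probes with 1 symbol. Line, spread and sample-number comparisons used limma 3.58.1 (lmFit, eBayes, Benjamini-Hochberg over all tested probes, threshold 0.05) under R 4.3.3, checked on simulated data. Correlations used two-sided permutation tests (100000 resamples, exact over 8 pigs). The number of arrays limits precision.

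The members and lists were chosen with earlier results of these data known. All members are named. From each list the text names genes with an unadjusted line p under 0.05, the largest change each way and, for fasting and feeding, the 2 widest spreads (1 of which is not reported here), and it names the 5 genes most like each of the 3 widest-varying members. No values of other samples stood in the table. Alternatives covered background, scaling, filters, batches, array quality, probes and left-out pigs.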

Additional observations from a re-analysis of the deposited data

Results flagged for a closer look

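The 9 genes were examined for a pig that stands apart within its line, over 18 groups of 8 pigs, and 2 such values were found, both of PPARGC1A. Chance gives about 1 such value in 20 groups. In low-RFI livers, pig 2 had the lowest PPARGC1A level at 0.84, with the next pig at 1.80, a gap of 0.533 of the line's whole range. This pig was also the lowest of its line in 6 of the 9 genes by the shown probes. In high-RFI livers, pig 7 had the highest PPARGC1A level at 3.22, with the next pig at 2.40, a gap of 0.601 of the range. The scanner software marked neither array for evaluation.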

How the results depend on the processing

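Over 29 alternatives per gene, 0 of the 9 genes were called between the lines. FBP1 and SLC2A2 kept their sign in all of them. Other line differences, all with adjusted p of 0.807 or more, turned their sign as follows. Without the 5 arrays marked for evaluation, all high-RFI, they were -0.46 for PCK1, -0.069 for PCK2, -0.41 for G6PC and +0.20 for PC. With array noise as a covariate they were -0.21 for PCK2, -0.39 for G6PC, +0.55 for PC and -0.0099 for PYGL. PCK2 was -0.076 with normexp and -0.030 with quantile normalization, PC +0.029 with median scaling, and GYS2 +0.0016 as the mean over its probes. With single pigs left out, the changes lay between -0.22 and +0.55 for PCK1, -0.041 and +0.097 for PCK2, -0.21 and +0.11 for PC, -0.12 and +0.14 for PPARGC1A, +0.14 and +0.65 for G6PC, and -0.25 and -0.012 for GYS2. Without a turn of sign, PPARGC1A moved to -0.50 and GYS2 to -0.20 with array noise as a covariate, and to -0.29 and -0.34 without the marked arrays. The cause of these turns was not tested.

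The number of probes called between the lines, 3 of 30097, was 1 over probes well above background on all 16 arrays. It was 0 with array noise as a covariate and 2 to 5 with single pigs left out. Without the marked arrays it was also 0, in a fit that left out 5 of the 8 high-RFI pigs. A replicate block gave 4 called probes and 0 called members. The shared replicate numbers were not taken as pairs, since same-numbered pigs deviated together with r from 0.048 to 0.395, under 0.1 in pairs 1 and 6. Spread calls (7) were 0 with normexp. The spread difference of PCK2 was -4.4e-05 and that of FBP1 -0.0045 with quantile normalization. Calls between the sets of sample numbers (584) were 37 with normexp, 4 within low-RFI pigs and 0 within high-RFI pigs. FBP1 differed between the sets by -0.048 with quantile normalization and -0.020 within low-RFI pigs, and PYGL by -0.21 within high-RFI pigs.

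PYGL with GYS2 gave r = -0.028 within low-RFI pigs, -0.16 without the 2 farthest pigs and -0.055 without low-RFI pig 2, an alternative chosen after seeing the data. PCK1 with PCK2 gave r = -0.23 within low-RFI pigs, -0.14 with line, set and slide means removed and -0.072 with quantile normalization. The relation of G6PC with SLC37A4 could not be computed for want of a probe.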

Other observations

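Among the listed genes, 4 were called between the sets of sample numbers, second set minus first set, all lower in the second. They were chosen for naming after their values were seen. They were 2 of the 12 fasting genes, 1 of the 10 further gluconeogenic enzymes and 1 of the 8 supply genes. Every other list had 0. ANGPTL4, a lipase inhibitor that rises on fasting, averaged 2.45 ± 0.32 in the second set and 3.78 ± 0.78 in the first (SD, n = 8 each, a difference of -1.34, limma adjusted p = 0.0354). CPT1A, the gate of mitochondrial fatty acid oxidation, averaged 4.05 ± 0.64 in the second set and 5.09 ± 0.40 in the first (-1.04, adjusted p = 0.0462). LDHA, a lactate dehydrogenase subunit, differed by -0.85 (adjusted p = 0.0462), and SLC16A1, the monocarboxylate transporter MCT1, by -0.53 (adjusted p = 0.0480). Over all tested probes 1.94% were called between the sets, and the number called fell to 37 probes with normexp.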
